A study of Mus musculus with 24 samples.

Results

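The Wnt pathway genes of 6 mouse small cell lung cancer (SCLC) cell lines were described with and without p53 and with and without cyclosporin A (CsA). Members were chosen by symbol from a table of 25239 genes: every Wnt ligand, Frizzled receptor (Fzd), secreted Frizzled-related protein (Sfrp) and Dickkopf antagonist (Dkk) in it, and 12 named coreceptors, R-spondin receptors, feedback inhibitors and nuclear factors. This rule found 49 genes, of which 19 were Wnt ligands, 10 Frizzled receptors, 4 Sfrp genes and 4 Dkk genes. The lines came from lung tumors started with a Cre adenovirus under the CMV promoter in mice with Trp53 XTR/XTR, Rb1 flox/flox and Rbl2 flox/flox alleles and a FlpO-ER recombinase at Rosa26, on a mixed B6J/129S4vJae background. Every line therefore carries Cre-recombined Rb1 and Rbl2 alleles, also in the control groups, and a gene trap that silences Trp53 until 4-hydroxytamoxifen (4-OHT) lets FlpO-ER remove it. The study classed 3 lines as Type D (4711-1, 4711-18 and 4716-11), which lose viability after p53 returns, and 3 as Type V (4711-11, 4716-10 and 4716-14), which stay viable. Each line is the culture of 1 tumor, and whether lines whose numbers begin alike came from the same animal is not given in the sources used here.

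Each line gave 4 libraries at 72 h: Control (vehicle), Control + CsA, Restored (4-OHT) and Restored + CsA, so that the 8 groups hold 3 lines each. CsA is a drug that binds cyclophilins, a family of peptidyl-prolyl isomerases. Levels are given as TPM, a share of all transcripts of a library that is scaled for transcript length and can be compared between genes. Read counts cannot be recovered from TPM, so the depth of each library is unknown. In bulk RNA, fewer cells that express a gene and less RNA per cell cannot be told apart. Restored libraries had both 4-OHT and p53, and every line carries the restorable allele. An effect of 4-OHT or of FlpO-ER itself therefore cannot be told apart from one of p53.

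Wnt proteins are secreted, lipid-modified ligands. They bind Frizzled receptors at the cell surface, and with the coreceptors Lrp5 and Lrp6 they stabilize beta-catenin, which then acts on genes through the TCF/LEF factors; several Wnts also signal without beta-catenin, through cell polarity or calcium. Sfrp proteins bind Wnts outside the cell, Dkk proteins block the coreceptors, and Axin2, Rnf43 and Znrf3 are feedback inhibitors. In the lung, Wnt ligands are known for their part in branching and in the upkeep of epithelial progenitors, Wnt7b in the epithelium among them.

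The labels were checked first. Trp53 lay between 10.5 and 15.3 TPM in the 12 libraries without 4-OHT and between 182 and 253 TPM in the 12 with it. Among markers of SCLC and neuroendocrine cells, Chga was at 0 in all 24 libraries and Neurod1 and Calca stayed at or under 0.105 TPM. Syp was at 0.109 to 1.41 TPM and Ncam1 at 4.46 to 27.3 TPM. Uchl1 was at 0 to 2.66 TPM in Type D and at 3.12 to 40.9 TPM in Type V. Insm1 was at 0 to 3.39 TPM in Type D and at 1.13 to 49.6 TPM in Type V. The types also differed in lineage genes. Col1a2, a fibrillar collagen chain, was at or under 0.0673 TPM in Type D and at 6.36 to 194 TPM in Type V, and the keratin Krt18 was at 2360 to 5115 TPM in Type D and at 49.4 to 762 TPM in Type V. The keratin Krt8 was at 1677 to 5797 TPM in Type D and at 0.44 to 567 TPM in Type V. The other epithelial markers overlapped between the types. Cdh1 was at 281 to 1050 TPM in Type D and at 50.3 to 572 TPM in Type V, and Epcam at 0.218 to 4.57 TPM and 0.124 to 2.19 TPM. The summed level of the 9 mesenchymal or fibroblast markers is mostly Vim. It ran from 2366 to 5361 TPM in the Type D libraries and from 2956 to 5290 TPM in the Type V ones. Dcn, Pdgfrb and Col3a1 did not overlap between the types. They reached 0.106, 0.239 and 0.0405 TPM in Type D and were at 3.52 to 71.9, 2.02 to 143 and 0.276 to 46.3 TPM in Type V. Col1a1 overlapped, at 0.0592 to 1.55 TPM in Type D and 0.698 to 401 TPM in Type V, as did Vim and Pdgfra. Thy1 and Lum stayed under 1 TPM throughout. The sum of the 3 endothelial markers stayed at or under 0.615 TPM, and of the 4 leukocyte markers Ptprc and Cd3e stayed under 1 TPM while Cd68 ran from 5.6 to 55.3 TPM and was higher in the restored groups. The part of these lineage differences in the Wnt differences between types was not tested.

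Genes with at least 1 TPM in at least 3 libraries were tested, which kept 37 of the 49 members and 14104 genes in all. The other 12 members are described by their highest value. Wnt2 reached 2.11 TPM in a single 4716-14 library and Wnt2b 1.28 TPM in a 4711-11 library, and the remaining 10 (Wnt1, Wnt3, Wnt3a, Wnt8a, Wnt8b, Wnt9b, Fzd9, Fzd10, Dkk1 and Dkk4) stayed under 1 TPM in every library, from 0.0395 TPM for Wnt9b to 0.609 TPM for Wnt1. Of the 37 tested members, 12 reached 1 TPM in Type V libraries alone (Axin2, Dkk2, Dkk3, Lef1, Lgr5, Sfrp1, Sfrp2, Sfrp4, Sfrp5, Wnt6, Wnt10b and Wnt16) and 0 in Type D libraries alone. Among all tested genes these shares were 5.63% and 2.58%. Such members entered the test through the group in which they are high, so the counts below describe the tested members and are no support for a difference of the whole set. The type differences and p-values of these 12 members are likewise given as a description and are no support for a difference. Differences were tested with limma on log2(TPM + 1), which understates changes of low genes. A gene was called when its Benjamini-Hochberg adjusted p was under 0.05 and its difference at least 1 on this scale.

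**Figure D1:**
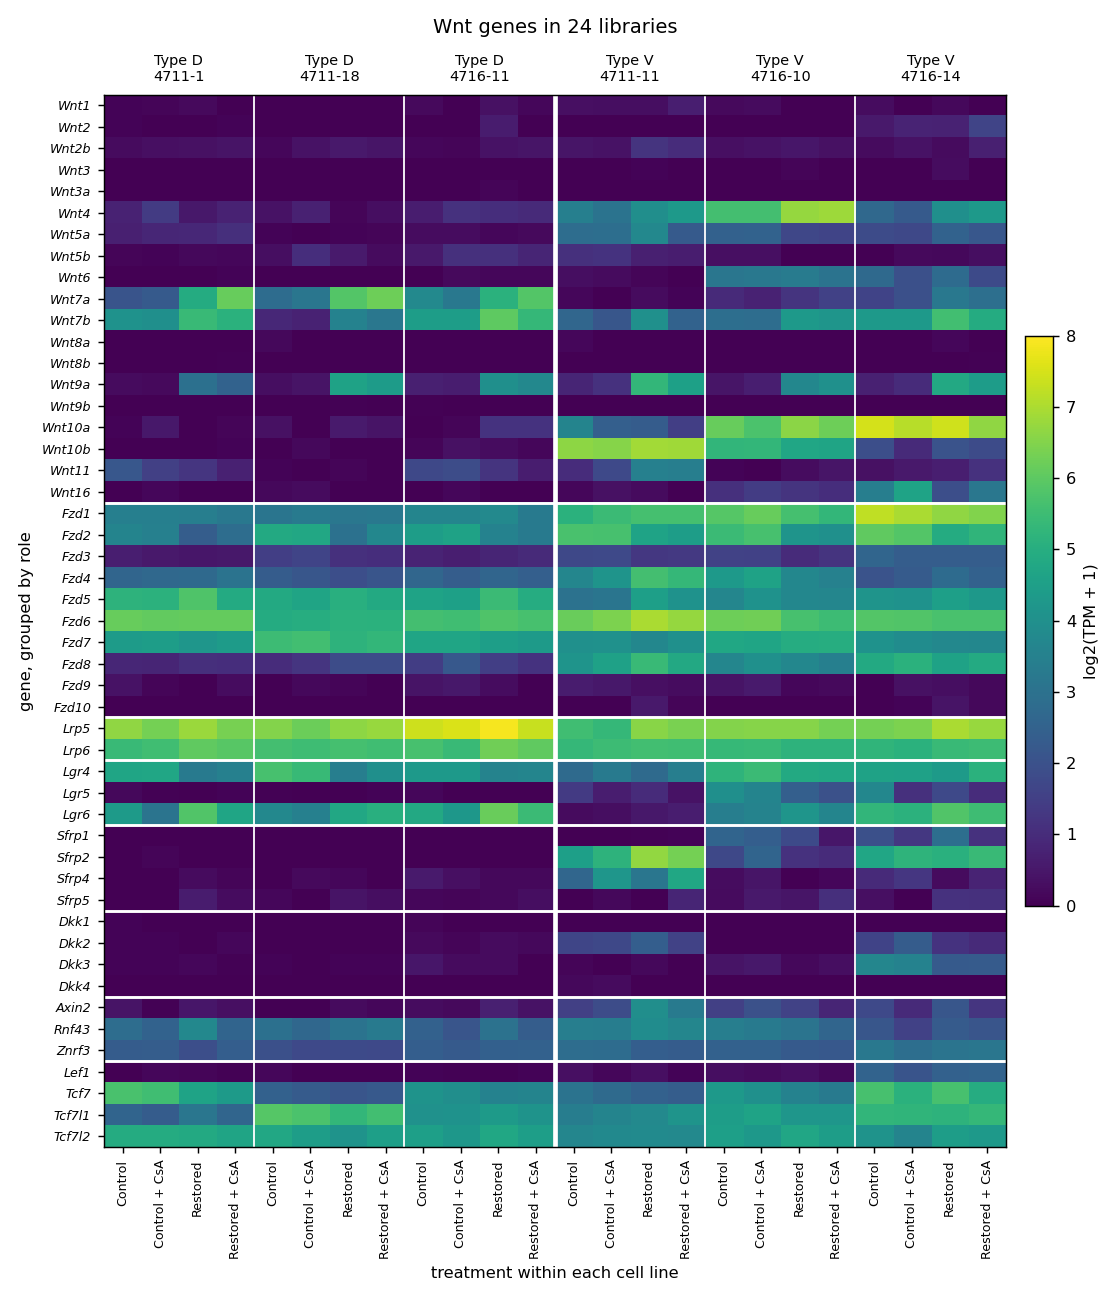
Level of the 49 Wnt genes, as log2(TPM + 1), in each of the 24 libraries, with libraries in columns by cell line and treatment and genes in rows by role. Wnt10a, Wnt10b, Wnt4, Fzd1, Fzd8 and Sfrp2 are brighter in Type V columns, Wnt7a in Type D columns, and Wnt9a is bright in the restored libraries of every line.

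Wnt9a was higher after p53 restoration in all 6 lines, in both types and with or without CsA. Wnt9a is a Wnt ligand known for its roles in joint and skeletal development. The Control libraries of the Type D lines 4711-1, 4711-18 and 4716-11 gave 0.165, 0.231 and 0.646 TPM and their Restored libraries 6.8, 23.5 and 14.9 TPM. In Type V it went from 0.767, 0.375 and 0.648 TPM in 4711-11, 4716-10 and 4716-14 to 38.7, 12 and 27.5 TPM. The restored libraries of each line stood above all Control libraries, and the groups did not overlap in either type. The difference was 3.44 ± 0.45 (log2, SE, n = 3 lines a group; limma adjusted p = 2.97e-05) in Type D and 3.95 ± 0.45 (adjusted p = 9.17e-06) in Type V. The responses of the types differed by -0.50 (95% interval -1.84 to 0.83), which did not pass the threshold.

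With CsA the same ligand went from 0.157, 0.344 and 0.547 TPM to 4.71, 20.2 and 12.3 TPM in the Type D lines, and the Type V lines went from 1.23, 0.581 and 0.973 TPM to 22.3, 15.2 and 20.3 TPM. The difference was 3.13 ± 0.45 (limma adjusted p = 0.000107) in Type D and 3.39 ± 0.45 (adjusted p = 5.62e-05) in Type V. Each of these 4 comparisons was called with every line left out in turn and with the compared groups fitted alone. Wnt9a lies on chromosome 11 (59306928 to 59333552, plus strand, GRCm38 in GENCODE release M21), 16.2 kb from Wnt3a, which lies on the opposite strand. Wnt3a was listed at 0 in 23 of 24 libraries and at 0.0811 TPM in 4716-11 Restored.

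Wnt7a and Wnt7b were, with Wnt9a, the ligands that were higher after restoration in all 6 lines. Wnt7a, a ligand of epithelia and the nervous system, was at 3.26, 6.14 and 12.7 TPM in the Control libraries of Type D and at 29.1, 56.7 and 33.6 TPM in the Restored ones. In Type V the lines went from 0.0971, 0.921 and 2.07 TPM to 0.169, 1.31 and 8.17 TPM, so that the 3 restored Type D lines stood above all Type V lines. The difference with restoration was 2.39 ± 0.72 (limma adjusted p = 0.0342) in Type D, and 0.65 ± 0.72 (adjusted p = 0.703) in Type V. With CsA, Type D went from 3.77, 7.75 and 8.26 TPM to 69.1, 73.7 and 57.7 TPM, a difference of 3.21 ± 0.72 (adjusted p = 0.00682). The Type D call was lost without 4711-1, 4711-18, 4716-11 or 4716-10, and with CsA without any of the 3 Type D lines. Without 4711-18 or 4716-11, 1 member, Wnt9a, was called in place of 3. Wnt7a lies on chromosome 6 (91363981 to 91411363, minus strand).

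Wnt7b was higher after restoration in each of the 6 lines, but the lines differed so much in its level that the test without the cell line did not call it. In Control it was at 15.9, 0.868 and 21.1 TPM in the Type D lines and at 5.26, 6.48 and 19 TPM in the Type V lines. In Restored these became 42, 10.7 and 63.8 TPM and 15.2, 18.5 and 46.7 TPM. The ratio within a line was 2.46 to 3.02 in 5 lines and 12.3 in 4711-18, where the starting level was under 1 TPM. Without the block the difference was 1.85 ± 1.04 (limma adjusted p = 0.292) in Type D and 1.34 ± 1.04 (adjusted p = 0.527) in Type V. With the cell line as a block it was 1.85 ± 0.29 (adjusted p = 0.000107) and 1.34 ± 0.29 (adjusted p = 0.00182), both called. Wnt7b lies on chromosome 15 (85535437 to 85582473, minus strand).

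Across all 37 tested members, Restored against Control called 3 members in Type D: Wnt9a and Wnt7a higher and Fzd2 lower. Among all genes 4.49% were called higher and 2.44% lower in that comparison. In Type V it called Wnt9a alone, beside 3.39% of all genes higher and 1.9% lower. With CsA present in both groups the calls were Wnt9a and Wnt7a in Type D, beside 3.53% higher and 1.88% lower, and Wnt9a in Type V, beside 2.84% higher and 1.77% lower. The median difference over the members was 0.02 in Type D and 0.08 in Type V, beside 0.07 and 0.05 over all tested genes. Members lay on both sides of 0, 19 above and 16 below in Type D and 22 above and 15 below in Type V.

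The 4 libraries of a line belong together by the labels, and with the cell line as a block more members were called. In Type D the block gave 6 members, Wnt7a, Wnt7b, Wnt9a and Lgr6 higher and Fzd2 and Lgr4 lower, beside 7.05% of all genes higher and 4.16% lower. For Type V the block gave 4, Wnt7b and Wnt9a higher and Fzd2 and Lgr5 lower, beside 5.74% and 2.93% of all genes. With CsA in both groups it gave the same 6 in Type D, beside 5.91% and 3.78%, and Wnt4 and Wnt9a higher and Fzd2 lower in Type V, beside 5.03% and 2.94%. Members called higher in Type D were 10.8% of the 37, which is a description and not a test against all genes.

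**Figure D2:**
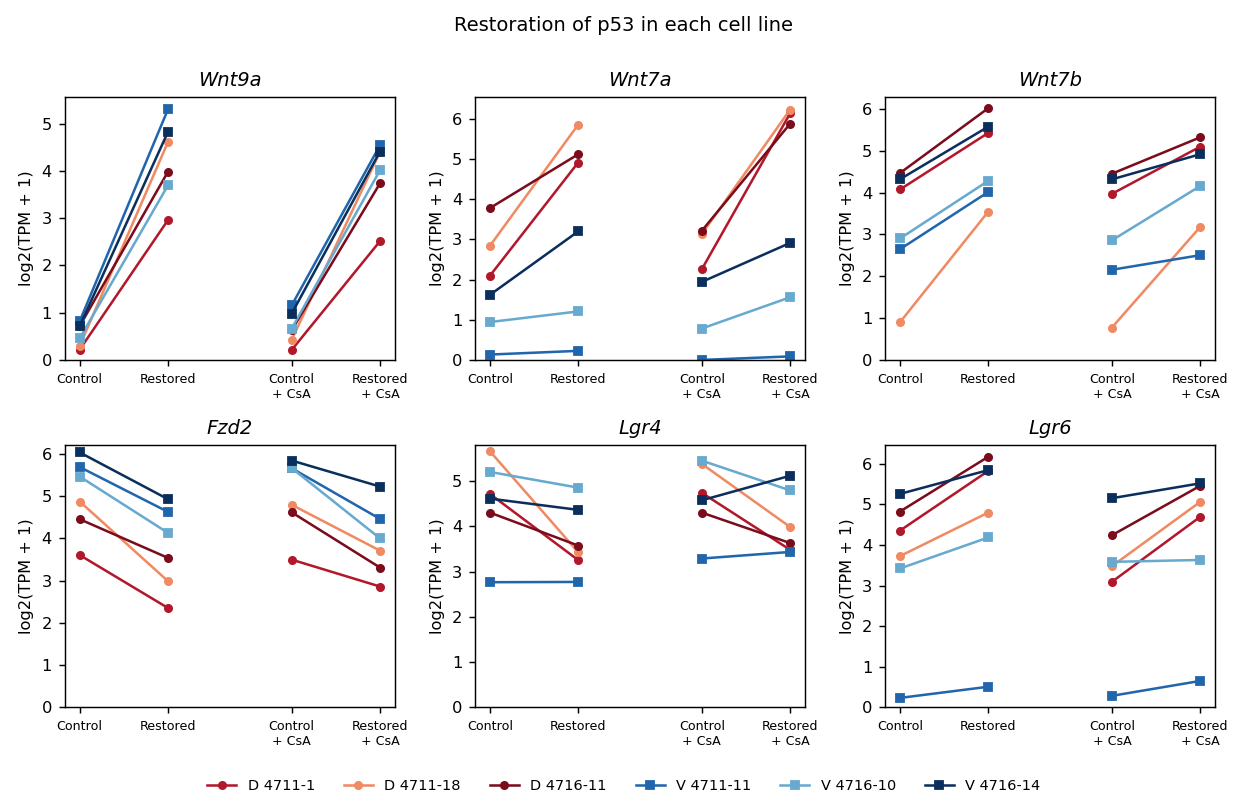
Level of 6 members before and after p53 restoration, as log2(TPM + 1), with 1 line per cell line (red circles Type D, blue squares Type V) and the CsA pair at the right of each panel. All 6 lines rise for Wnt9a and Wnt7b and fall for Fzd2, Wnt7a rises most steeply in Type D, Lgr4 falls in the Type D lines, and Lgr6 is close to 0 in 4711-11.

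The promoters of Wnt9a and Wnt7a are shown because both ligands were called higher with restoration in Type D without the block. In Type V, Wnt7a was not called. The Wnt11 promoter is shown because it is the member promoter that holds a p53 half-site match (it was chosen after its letters were seen). Sequences are from RefSeq on GRCm38.p6, 5′ to 3′ on the strand of the gene, from 250 to 21 bases before the annotated start. Capitals mark matches to 3 searched patterns: the p53 half-site and CTTTGAT, a TCF/LEF pattern, on both strands, and TATAA on the gene strand.
Wnt9a (chr11:59306680-59306909, plus strand): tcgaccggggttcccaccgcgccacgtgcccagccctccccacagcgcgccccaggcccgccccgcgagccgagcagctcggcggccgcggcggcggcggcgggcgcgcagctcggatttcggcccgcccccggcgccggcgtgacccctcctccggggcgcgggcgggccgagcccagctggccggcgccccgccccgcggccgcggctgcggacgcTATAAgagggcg
Wnt7a (chr6:91411374-91411603, minus strand): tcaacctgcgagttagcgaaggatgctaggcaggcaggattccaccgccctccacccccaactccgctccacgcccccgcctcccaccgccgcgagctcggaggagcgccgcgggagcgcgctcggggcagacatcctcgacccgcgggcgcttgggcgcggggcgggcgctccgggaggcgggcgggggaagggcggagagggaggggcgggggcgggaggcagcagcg
Wnt11 (chr7:98834862-98835091, plus strand): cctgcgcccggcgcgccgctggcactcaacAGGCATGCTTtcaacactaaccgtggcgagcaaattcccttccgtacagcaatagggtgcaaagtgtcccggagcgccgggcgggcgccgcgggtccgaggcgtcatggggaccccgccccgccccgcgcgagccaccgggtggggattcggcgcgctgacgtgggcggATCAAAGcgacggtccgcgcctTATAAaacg
The Wnt9a window is 83.9% G and C and the Wnt7a window 77%, where the median over 32851 promoters of this table is 51.7%. The capitals in Wnt9a are TATAA, which 15.3% of all windows of this length hold. Neither Wnt9a nor Wnt7a holds the p53 half-site, found in 6.59% of all windows, or CTTTGAT, found in 3.01%. Of the 49 members, 33 had a promoter in the table; Wnt7b and Fzd2 did not. The Wnt11 window holds all 3 patterns, the first from 220 to 211 bases before the start. Wnt11, a ligand of cell movement and polarity, was at 1.01, 0.0489 and 0.273 TPM in Type V Control and at 10.2, 0.197 and 0.588 TPM in Restored, and at 3.46, 0.0528 and 2.31 TPM against 1.37, 0.0878 and 1.29 TPM in Type D. It passed no restoration test (limma adjusted p = 0.559 in Type V and 0.822 in Type D). These matches are letters in a window, not binding sites.

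In Control the summed Wnt ligand transcripts were lower in Type D, and fewer ligand genes reached 1 TPM. The 19 Wnt genes summed to 24.5, 8.51 and 38.4 TPM in the Type D Control lines and to 137, 178 and 229 TPM in the Type V Control lines, and the sums did not overlap. Type D lines had 1 to 3 Wnt genes at 1 TPM or more in Control and Type V lines 7 or 8. The ligands at this level in Type D (Wnt7a, Wnt7b and Wnt11) each reached it in a Type V line too, Wnt7b in all 3. In Type D the leading ligand was Wnt7b in 4711-1 (64.8% of the ligand sum) and 4716-11 (55%) and Wnt7a in 4711-18 (72.1%). In Type V it differed by line: Wnt10b made up 73% of the sum in 4711-11, Wnt10a 78.6% in 4716-14, and in 4716-10 Wnt10a (39.4%) was followed by Wnt4 (27.1%). After restoration the sums were 81.1, 92.6 and 119 TPM in Type D and 215, 271 and 285 TPM in Type V. Each line was higher than in Control, and the types still did not overlap. With CsA in both groups 5 of the 6 lines were higher after restoration, and 4716-14 was at 198 TPM before and 197 TPM after it. In Restored, Type D lines had 3 to 7 Wnt genes at 1 TPM or more and Type V lines 8 or 9.

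**Figure D3:**
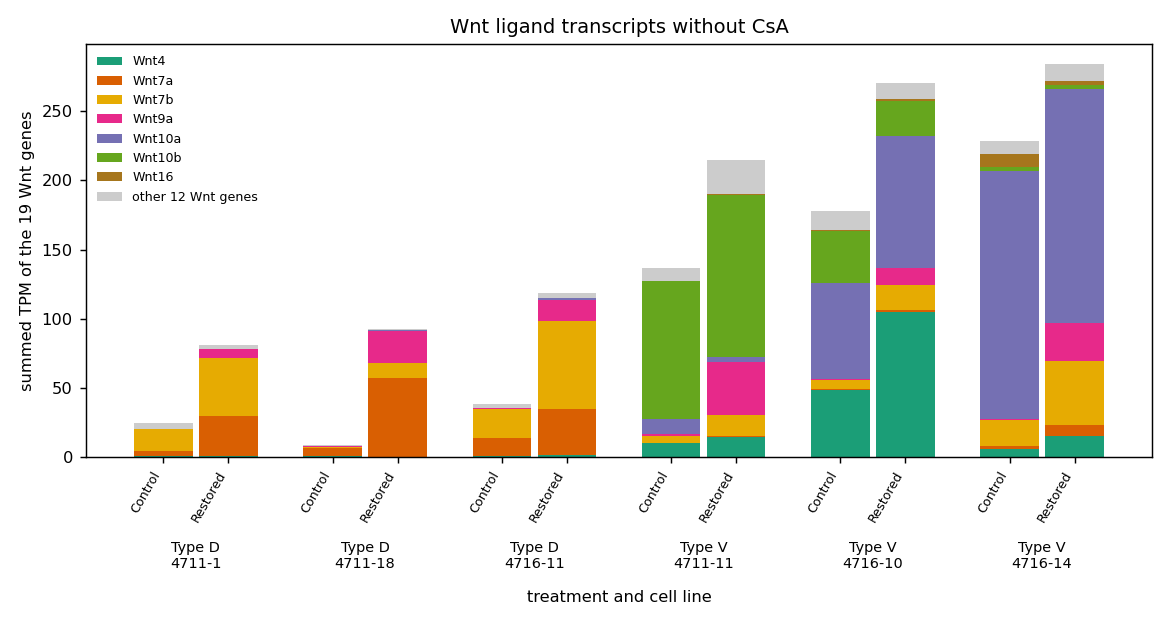
Summed TPM of the 19 Wnt genes in the Control and Restored library of each cell line, split by ligand. Type D bars hold mainly Wnt7a and Wnt7b and grow after restoration with Wnt7a, Wnt7b and Wnt9a, while Type V bars are led by Wnt10a, Wnt10b or Wnt4, depending on the line.

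Type D against Type V in Control called 9 of the 37 members, 8 lower and 1 higher, where 4.41% of all genes were lower in Type D and 4.42% higher. The lower members were the ligands Wnt10a, Wnt10b, Wnt4 and Wnt5a, the receptors Fzd8, Fzd1 and Fzd2 and the R-spondin receptor Lgr5, and the higher one was Fzd5. The median difference was -0.81 over the members and -0.12 over all tested genes, and 12 of the members entered the test through Type V alone. The values of the 3 lines of each type did not overlap in 14 members lower and 4 higher in Type D, beside 19.5% and 11.9% of all tested genes arranged in this way. In Control + CsA 6 members were lower and 1 higher, beside 5.07% and 4.81% of all genes. In Restored 9 were lower and 2 higher, beside 4.99% and 4.45%, and in Restored + CsA 7 were lower and 1 higher, beside 4.06% and 3.76%. In every treatment 10 members (Axin2, Fzd1, Fzd2, Fzd8, Lgr5, Sfrp2, Wnt4, Wnt5a, Wnt10a and Wnt10b) had all 3 Type D lines below all 3 Type V lines, and Fzd5 and Wnt7a had them above, where 7.64% and 5.66% of all tested genes were arranged in this way in every treatment. Of the 10, Axin2, Lgr5, Sfrp2 and Wnt10b entered the test through Type V alone.

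These p-values share the spread of all 8 groups, in which each line recurs 4 times, and so lean on more libraries than lines. With the 6 libraries of a comparison fitted alone, 4 members were called in Control (Wnt10a, Wnt5a, Fzd8 and Axin2), 4 in Control + CsA (Fzd1, Fzd8, Sfrp2 and Wnt5a), 3 in Restored (Fzd1, Fzd8 and Wnt4) and 4 in Restored + CsA (Fzd1, Fzd8, Wnt4 and Wnt7a), all lower in Type D but Wnt7a. In such fits 4.47%, 4.6%, 3.47% and 4.24% of all genes were called. Fzd8 was called in all 4 of these fits and in all 24 fits of the type comparisons that leave out a line.

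Wnt10a and Wnt10b, a pair of closely related ligands that act through beta-catenin in skin, tooth and bone, gave the widest differences in Control and in Restored. The difference of Sfrp2 was wider than that of Wnt10b in Control + CsA (-4.27 against -4.10), and that of Wnt4 wider than both in Restored + CsA (-4.46, against -4.38 for Wnt10b and -4.23 for Wnt10a). Neither Wnt10b in Control + CsA (limma adjusted p = 0.0528) nor Wnt10a in Restored + CsA (adjusted p = 0.0515) was called. Wnt10a was at 0.0557, 0.293 and 0 TPM in the Type D Control lines and at 11.3, 70 and 180 TPM in the Type V lines (-5.61 ± 1.37, limma adjusted p = 0.00988). The second, Wnt10b, was at 0, 0 and 0.0803 TPM against 99.9, 37.3 and 2.83 TPM (-4.58 ± 1.39, adjusted p = 0.0346). The 2 ligands were high in different Type V lines: 4711-11 had most Wnt10b and least Wnt10a, and 4716-14 the reverse. In Restored, Wnt10a was at 0, 0.488 and 1.25 TPM against 4.04, 95.7 and 169 TPM, and Wnt10b at 0, 0 and 0.201 TPM against 117, 25.4 and 3.17 TPM. The difference in Restored was -4.86 ± 1.37 (adjusted p = 0.0222) for Wnt10a and -4.47 ± 1.39 (adjusted p = 0.0361) for Wnt10b. These Restored calls were each kept in 1 of 6 fits that leave out a line, for Wnt10a the fit without 4711-11 and for Wnt10b the fit without 4716-14, and neither passed in the compared groups alone (adjusted p = 0.0995 and 0.0883). In Control Wnt10a lost its call without 4711-1 or 4716-11, and Wnt10b kept it only without 4716-14. Wnt10b was at 0 in 2 Type D Control lines, and its log2 difference depends on the pseudocount. It entered the test through Type V alone, so its type differences are a description.

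Wnt10a lies on chromosome 1 (74791516 to 74804179, plus strand), 6.19 kb from Wnt6 on the same strand. Wnt6 was at 0 in all 3 Type D Control lines and at 0.231, 7.91 and 5.6 TPM in Type V, high in the 2 lines that lead in Wnt10a, and was not called. Wnt10b lies on chromosome 15 (98770712 to 98778150, minus strand), 11.7 kb from Wnt1 on the opposite strand. Wnt1 stayed at or under 0.609 TPM in every library while Wnt10b reached 117 TPM.

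Wnt4, a ligand known from kidney and female reproductive tract development, was led by a single Type V line. It was at 9.99, 48.2 and 5.54 TPM in the Type V Control lines and at 0.685, 0.301 and 0.561 TPM in Type D (-3.34 ± 0.87, limma adjusted p = 0.0153), a call lost without any of the 3 Type D lines. After restoration the Type V lines were at 14.5, 105 and 14.7 TPM and the Type D lines at 0.434, 0.0834 and 1.05 TPM (-4.33 ± 0.87, adjusted p = 0.00252). All 3 Type V lines were higher after restoration, with CsA too, where they went from 7.27, 47.9 and 3.78 TPM to 18.5, 112 and 18.8 TPM. That rise was called with the cell line block (1.5 ± 0.18, adjusted p = 1.61e-05) and not without it (adjusted p = 0.386). Wnt4 lies on chromosome 4 (137277489 to 137299726, plus strand).

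Wnt5a is the best known ligand of the pathway branch without beta-catenin. The Type D lines had 0.623, 0.0608 and 0.198 TPM of it in Control and the Type V lines 6.31, 4.54 and 2.57 TPM. The groups did not overlap, and the difference was -2.04 ± 0.45 (limma adjusted p = 0.00519). It was called in all 4 treatments, from -2.28 to -1.58; in Restored + CsA the call was lost without 4711-18, 4716-11 or 4716-14. Wnt16 reached 9.64 TPM in Control and 23.8 TPM in Control + CsA in 4716-14, and stayed at or under 1.67 TPM in the other lines. Wnt5b ran from 0 to 1.24 TPM over all libraries, and neither was called.

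Among the Frizzled receptors Fzd6 had the highest mean level of the 24 libraries, 60.3 TPM, with a range of 29.4 to 127 TPM, and was not called between types or with restoration. Fzd8 and Fzd1 separated the types most clearly. Fzd8 was at 0.815, 1.03 and 1.76 TPM in the Type D Control lines and at 16.5, 11.7 and 28.3 TPM in Type V Control (-3.11 ± 0.48, limma adjusted p = 0.000234), and its difference lay between -3.14 and -3.03 in the 4 treatments. Fzd1 was at 10, 7.7 and 11.6 TPM against 33.3, 57.8 and 150 TPM (-2.66 ± 0.45, adjusted p = 0.000528), and its difference lay between -2.72 and -2.52. Both receptors stood below the Type V lines in all 3 Type D lines in each treatment.

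Fzd5, an epithelial and endothelial Frizzled, went the other way. It was at 35.3, 28.3 and 24 TPM in the Type D Control lines and at 7.15, 11.9 and 16.4 TPM in the Type V lines (1.29 ± 0.31, limma adjusted p = 0.00945). Restored gave 54, 32.3 and 42.3 TPM against 22, 12.1 and 21.7 TPM (1.18 ± 0.31, adjusted p = 0.0157). The lines of the types did not overlap in any treatment, but the call was missed in Restored + CsA, in the compared groups alone (adjusted p = 0.0859 in Control) and, in Control, without 4711-1 or 4711-11.

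Fzd2 was the Frizzled receptor called lower with restoration. Type D lines went from 11.2, 28.3 and 20.9 TPM in Control to 4.11, 6.94 and 10.6 TPM in Restored, and Type V lines from 50.7, 43.2 and 64.7 TPM to 23.7, 16.5 and 29.5 TPM. Every line was lower, with CsA too. In Type D the difference was -1.35 ± 0.40 (limma adjusted p = 0.0298), a call lost when 4711-18, 4716-11 or 4711-11 was left out, and in Type V -1.17 ± 0.40 (adjusted p = 0.071). With the cell line block both were called (adjusted p = 3.49e-05 and 0.000159), as were both comparisons under CsA (-1.01 ± 0.19 and -1.16 ± 0.19). Fzd2 was also lower in Type D than in Type V in every treatment, from -1.60 to -1.27, and its lines did not overlap; the Control difference (-1.42, adjusted p = 0.023) lost its call without 4711-1, 4716-11, 4711-11 or 4716-14. The gene is on chromosome 11 (102604396 to 102608058, plus strand). Of the other Frizzleds, Fzd3, Fzd4 and Fzd7 were called in no comparison. Fzd4 reached 47.6 TPM in 4711-11 Restored, from 11.7 TPM in Control.

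**Figure D4:**
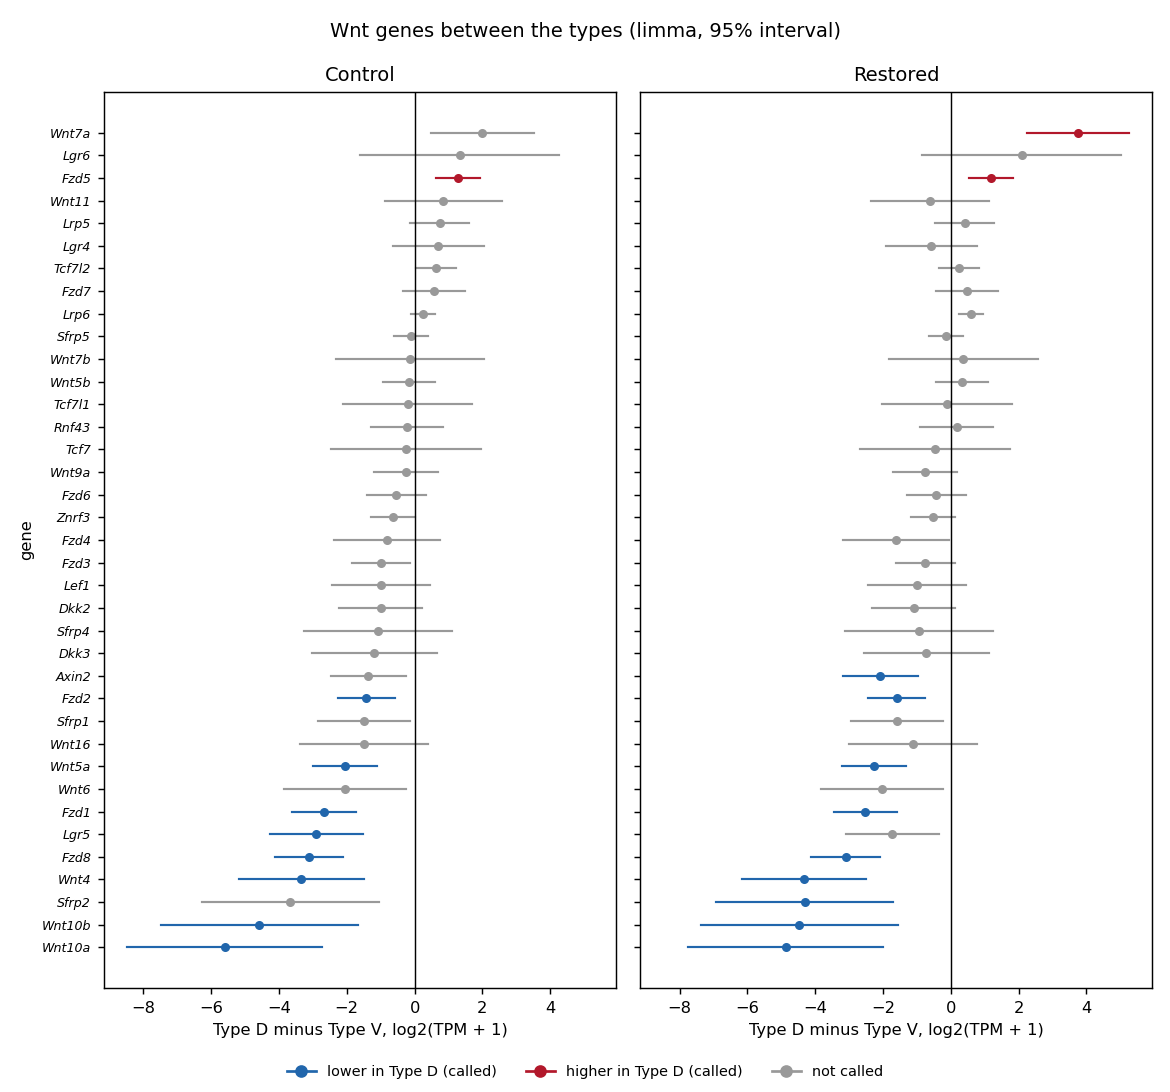
Type D minus Type V difference of the 37 tested members on the log2(TPM + 1) scale, with 95% intervals from limma, in Control and in Restored. In Control 8 members are lower in Type D and 1 higher (coloured), and in Restored 9 are lower and 2 higher, with Wnt7a at 3.75.

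The coreceptor Lrp5 had the highest mean level of all members, 104 TPM, and Lrp6 was at 33.3 to 76.5 TPM in every library, and neither was called in any comparison. The R-spondin receptors Lgr4, Lgr5 and Lgr6, which raise the response to Wnt by holding back Rnf43 and Znrf3, behaved unlike each other. Lgr6 had the highest mean, 23.8 TPM, yet was at 0.176 to 0.572 TPM in the 4 libraries of 4711-11. Lgr5, a stem cell marker of gut and skin, was at 0.116, 0.0408 and 0.114 TPM in the Type D Control lines and at 1.59, 14.7 and 12.1 TPM in the Type V ones (-2.90 ± 0.66, limma adjusted p = 0.00599), with no overlap, and lost its call without 4716-14. Lgr5 entered the test through Type V alone, so its type difference is a description. It was not called in Control + CsA, Restored or Restored + CsA (adjusted p = 0.0781, 0.0844 and 0.315). It was lower in all 3 Type V lines after restoration, at 0.975, 4.36 and 2.41 TPM, which was called with the cell line block (-1.30 ± 0.33, adjusted p = 0.00508) and not without it (adjusted p = 0.262).

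Lgr4 and Lgr6 moved in opposite directions in Type D. Lgr4 went from 25.3, 49.5 and 18.7 TPM to 8.54, 9.76 and 10.9 TPM with restoration, and Lgr6 from 19.4, 12.2 and 27.3 TPM to 55.5, 26.8 and 71 TPM. For Lgr4 the difference was -1.47, with adjusted p = 0.154 in limma without the block and 0.000146 with it, and for Lgr6 1.30, with 0.649 and 0.000171. With CsA in both groups the blocked differences were -1.11 ± 0.24 and 1.47 ± 0.22, again called. In Type V, Lgr4 went from 5.8, 35.8 and 23.5 TPM to 5.83, 27.9 and 19.6 TPM and Lgr6 from 0.176, 9.7 and 37.2 TPM to 0.423, 17.2 and 56.3 TPM, and neither was called.

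The difference of the restoration responses between types was tested for all members, and 0 passed without the block, where 0.0284% of all genes did. None of the 37 had an unadjusted p under 0.05 in that fit, beside 540 of all 14104 genes. In the fit with the block 6 of the 37 had one, beside 3162 of all 14104 genes. With the block 2 members passed, beside 2.44% of all genes. The response of Wnt7a was 1.75 ± 0.46 higher in Type D (limma adjusted p = 0.0378) and that of Lgr4 1.28 ± 0.34 lower, written as -1.28 (adjusted p = 0.0396). Wnt7a was at 0.0971 and 0.921 TPM in Control of the Type V lines 4711-11 and 4716-10, where the log2(TPM + 1) scale understates changes. The study lists Wnt9a, Wnt7a and Lgr4 in its own response modules, which were chosen on these samples, so their directions are not independent evidence.

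The secreted antagonists were near absent in Type D and depended on the line in Type V. The 4 Sfrp genes summed to at most 0.713 TPM in any Type D library and to 2.6 to 112 TPM in Type V libraries. Sfrp2 had the highest mean of the family and was at 0 in all Type D Control lines and at 22, 2.31 and 25.7 TPM in Type V Control. In Restored it was at 0 in Type D and at 104, 1.19 and 32.9 TPM in Type V (-4.31 ± 1.25, limma adjusted p = 0.0252). Line 4716-10 held little Sfrp2 and was, with 4716-14, the line that held Sfrp1, at 4.91 and 2.84 TPM in Control. Sfrp4 was led by 4711-11, at 5.17 TPM in Control and 26.2 TPM in Restored + CsA, where the other lines stayed at or under 1.41 TPM. Since Sfrp2 was at 0 in whole groups, its fitted difference depends on the pseudocount. It entered the test through Type V alone, so the difference is a description. The Sfrp2 calls in 3 treatments were each kept in 1 of 6 fits that leave out a line, the fit without 4716-10.

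Dkk1 and Dkk4 were at or under 0.172 TPM in all libraries. Dkk3, the highest Dkk by mean, is an atypical family member, and its level was that of 4716-14: 11.6 TPM in Control and 3.85 TPM in Restored, and 10.7 and 3.9 TPM with CsA, with the libraries of all other lines at or under 0.418 TPM. Dkk2 was at 2.19, 0 and 2.05 TPM in Type V Control and at or under 0.181 TPM in Type D. Neither was called.

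Axin2, a direct target and inhibitor of beta-catenin signaling that is widely used as its readout, was low in Type D and higher in Type V. The Type D Control lines had 0.334, 0 and 0.21 TPM and the Type V Control lines 1.83, 1.84 and 2.41 TPM, without overlap. In Restored the values were 0.39, 0.188 and 0.63 TPM and 14.3, 2.02 and 3.4 TPM (-2.08 ± 0.53, limma adjusted p = 0.0129), led by 4711-11. The call was lost without any of the 3 Type D lines and in the compared groups alone (adjusted p = 0.124). In Control the difference was not called in the fit of all groups and was called in the compared groups alone. Axin2 entered the test through Type V alone, so these type differences are a description. The ubiquitin ligases Rnf43 and Znrf3, which remove Frizzleds from the surface, were at 1.93 to 13.8 TPM and 2.38 to 8.21 TPM over all libraries and were called in no comparison.

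The TCF/LEF factors were not called in any comparison. Tcf7l1, a mostly repressive factor, had the highest mean, 23.4 TPM, and ran from 5.02 to 58.6 TPM within Type D Control alone. Tcf7 ran from 4.64 to 51.5 TPM there, and the 2 factors were high in different lines: Tcf7 in 4711-1 and Tcf7l1 in 4711-18. Lef1 was at 3.25 to 4.9 TPM in the 4 libraries of 4716-14 and at or under 0.264 TPM in all others.

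CsA alone changed no member past the threshold. Control + CsA against Control called 0 of 37 members in either type with limma, and 0 had an unadjusted p under 0.05; of all genes 0% were called in Type D and 0% in Type V. Restored + CsA against Restored also called 0, beside 0.0142% of all genes for Type D and 0% for Type V. Here too 0 members had an unadjusted p under 0.05, beside 229 of all 14104 genes for Type D and 100 for Type V. With the block, 0 members were called in these 4 comparisons, where 0.0142%, 0%, 0.128% and 0% of all genes were called. In these blocked fits 3, 2, 3 and 6 of the 37 members had an unadjusted p under 0.05. Of all 14104 genes, 953, 609, 1771 and 633 had one. Wnt7a in Type D gave 29.1, 56.7 and 33.6 TPM in Restored and 69.1, 73.7 and 57.7 TPM in Restored + CsA, higher in all 3 lines with CsA (0.78 with a 95% interval of -0.73 to 2.30 without the block). Wnt7b was lower with CsA in each of the 6 restored lines, by differences that did not pass. A p that misses the threshold does not show that CsA leaves these genes as they were.

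Other genes of the pathway were read from 6 lists, and their counts stand beside the shares of all genes given above, which were 4.41% lower and 4.42% higher in Type D Control, 4.99% and 4.45% in Restored, and, with restoration, 4.49% higher and 2.44% lower in Type D and 3.39% and 1.9% in Type V. Notum, Gpc4 and Tnfrsf19 stayed under 1 TPM in every Type D library and entered the test through Type V alone, so their type differences are given as a description. Of 3 genes for the lipid modification, export and inactivation of Wnt, Notum, an enzyme that strips the lipid from Wnts, was lower in Type D in each treatment, at 0.114 ± 0.0986 TPM (SD, n = 3) against 8.09 ± 4.46 TPM in Control (-2.92 on the log2 scale). It rose with restoration in Type V, to 35.1 ± 19.6 TPM (1.89, limma adjusted p = 0.0122), and not past the threshold in Type D. Porcn and Wls, which acylate and carry Wnts, were called in no comparison. Of 15 other Wnt modulators, secreted or in the membrane, 4 were tested. Apcdd1, an inhibitor of Wnt reception, was higher in Type D in Restored (1.69, limma adjusted p = 0.00605), at 46.4 ± 14.3 TPM against 13.3 ± 2.23 TPM.

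Of 12 tested genes for other Wnt receptors and planar polarity, 3 were lower and 0 higher in Type D Control, beside 4.41% and 4.42% of all genes: Gpc4, Ptk7 and Celsr2. Gpc4, a glypican that binds Wnts at the cell surface, was at 0.0551 ± 0.0954 TPM in Control of Type D and 30.2 ± 11.1 TPM in Control of Type V (-4.81 on the log2 scale), and it rose to 93.3 ± 55.1 TPM in Type V Restored (1.52, limma adjusted p = 0.0252). Ptk7, a pseudokinase coreceptor of the polarity branch, rose with restoration in both types, from 35.4 ± 9.25 to 106 ± 36 TPM in Type D (1.54, adjusted p = 0.00217) and from 86.3 ± 17.3 to 213 ± 50.3 TPM in Type V (1.29, adjusted p = 0.0101). Of the 12 genes, Ptk7 was called with restoration in Type D, joined by Prickle1 with the cell line block, and Ptk7 and Gpc4 were called in Type V with and without it.

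Of 15 genes of the Dishevelled proteins and the beta-catenin destruction complex, 1 rose with restoration in each type, Apc2, a relative of Apc, from 0.772 ± 0.335 to 4.21 ± 1.34 TPM in Type D (1.54, limma adjusted p = 0.0114) and from 0.576 ± 0.406 to 4.9 ± 3.32 TPM in Type V (1.77, adjusted p = 0.00557). Between types Amer1 and Dvl2 were lower in Type D Control (-1.52 and -1.08, adjusted p = 0.0128 and 0.00262). Ctnnb1, which encodes beta-catenin, was called higher in Type D in Restored, at 1432 ± 54.2 TPM against 689 ± 118 TPM (1.07, adjusted p = 0.000972). Of 10 nuclear cofactors, Ctnnbip1 and Tle2 were lower and Tle4 higher in Type D Control, beside 4.41% of all genes lower and 4.42% higher, and 0 were called with restoration. Of 7 tested feedback and target genes, Ccnd1, the cyclin D1 gene, was higher in Type D Control, at 668 ± 177 TPM against 275 ± 25.9 TPM (1.24, adjusted p = 0.00715), while Tnfrsf19 and Tcf4 were lower. Tcf4 encodes the bHLH factor E2-2 and not the TCF/LEF factor of that nickname, and 0 of the 7 were called with restoration.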

How the data were processed

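RNA was measured in 24 libraries of 6 mouse cell lines, with 3 lines in each of 8 groups. According to the study, libraries were stranded mRNA libraries with single-end reads. The authors deposited TPM values made with kallisto or HISAT2; which of the 2, and whether mm10 or GRCm39, is not clear from the sources used here. HISAT2 stands in the submitters' processing notes.

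Members and gene lists were chosen with earlier results of these data known. Genes with at least 1 TPM in at least 3 libraries (14104 of 25239) were fitted on log2(TPM + 1) with limma 3.58.1 in R 4.3.3, with 1 coefficient per group and eBayes with trend, and p-values were adjusted per comparison over all tested genes (Benjamini-Hochberg, two-sided) in 13 comparisons. The call needs an adjusted p under 0.05 and a difference of 1 log2. The test was checked on simulated data. Libraries of a line are paired by the labels; after removal of group means their residuals correlated at 0.599 to 0.929 (36 pairs), against -0.675 to 0.0438 between lines of a type (72 pairs). The block was an alternative, and the type comparisons cannot take it. Alternatives also covered the pseudocount, the filter, 2 normalizations, the compared groups alone and each line left out. Named members are those called in any comparison with or without the block and the highest of each family. Further members that were not called are named with values to account for the rest of the set. Each line gives 1 library per treatment. Without the block, p-values rest on the spread between lines within the groups, in which each line recurs 4 times. With the block they rest on how far the treatment changes differ between lines. Positions are from GENCODE M21 (GRCm38), promoters from RefSeq (GRCm38.p6). Python 3.11.15 and its library matplotlib 3.10.9 made the figures. Chromatin data and tumors were not analysed here, and a gene of the marker lists is not reported here.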

Additional observations from a re-analysis of the deposited data

Results flagged for a closer look

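The restoration response of Wnt7a differed between the types by 1.75 (log2, Type D minus Type V) and that of Lgr4 by -1.28 in a limma fit with the cell line as a block (adjusted p = 0.0378 and 0.0396). Without the block neither passed (adjusted p = 1 for both). Wnt7a was higher with restoration in all 6 lines, by 1.34 to 3.02 in the Type D lines and by 0.09 to 1.58 in the Type V lines, so the ranges overlapped. The Type V lines 4711-11 and 4716-10 had under 1 TPM of Wnt7a in Control, where the log2(TPM + 1) scale understates changes. Lgr4 was lower in the 3 Type D lines, by -2.23 to -0.73, and lay between -0.35 and 0.01 in the Type V lines, without overlap.

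Wnt4 and Wnt5a moved in opposite directions in the 3 lines of each type, in contrasts whose difference between types was not tested. These cases were picked by their signs, and the share of all genes arranged this way is not given here, so they are a description. With restoration under CsA, Wnt4 changed by a mean of -0.41 ± 0.22 (SD, n = 3) in Type D and by 1.5 ± 0.48 in Type V. With CsA alone it changed by 0.49 ± 0.13 in Type D, at 0.301 to 1.59 TPM over those 6 libraries, and by -0.29 ± 0.25 in Type V, where 4716-10 changed by -0.0077. With CsA after restoration, Wnt5a changed by 0.095 ± 0.10 in Type D and by -0.60 ± 0.74 in Type V. The Type D libraries lay at 0.0506 to 1.13 TPM. The smallest changes were 0.027 in 4711-18 and -0.047 in 4716-10.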

How the results depend on the processing

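Counts of called members in the type comparisons depended most on the samples in the fit. With the compared groups alone they were 4, 4, 3 and 4 in Control, Control + CsA, Restored and Restored + CsA, in place of 9, 7, 11 and 8; a line left out gave 4 to 10, 3 to 9, 6 to 11 and 4 to 9. The lowest counts came without 4711-1 or 4716-11; without 4711-18 they were 7, 4, 7 and 5. A pseudocount of 0.1 gave 11 in Control + CsA. For Restored against Control the paired fit with the cell line block called 6 members in Type D and 4 in Type V in place of 3 and 1, and under CsA 6 and 3 in place of 2 and 1. It called 2 in the difference of responses in place of 0, removed 0 calls and changed no other call. A line left out gave 1 to 3 in Type D (1 without 4711-18 or 4716-11), 1 to 2 in Type V (2 without 4711-1), and under CsA 1 to 2 in each type (1 without any Type D line in Type D; 2 without 4711-1 or 4716-10 in Type V). Quantile normalization gave 2 members in Type V with and without CsA, median-ratio scaling gave 2 without CsA, and a pseudocount of 0.1 gave 1 in Type D under CsA. These scalings moved the median of all genes by at most 0.11 (log2), the shift in Control + CsA between types. Over 16 members in 56 member and comparison pairs, 692 alternative values gave 0 reversals of direction, 116 lost calls and 21 gained calls. Fold sizes of members near 0 TPM depend on the pseudocount, and with unknown depth a value of 0 TPM sets no limit.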
